A study of Mus musculus with 12 samples.

Results

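The genes described here encode NADPH oxidase subunits: Cybb, Cyba, Ncf1, Ncf4, Rac2, Nox1, Nox4, Duox1 and Duox2. They were chosen by gene name, are 9 of the 54532 genes of the deposited table, and 7 of the 9 passed the filter on low counts. NADPH oxidases move electrons from NADPH across a membrane to oxygen and so make superoxide or hydrogen peroxide. The phagocyte enzyme has a catalytic and a stabilising chain in the membrane and is switched on when cytosolic subunits and a Rac GTPase join them; Nox4 needs only the stabilising chain and is constitutively active; the dual oxidases Duox1 and Duox2 release hydrogen peroxide and need a maturation factor, Duoxa1 or Duoxa2, to reach the cell surface. In peripheral nerve the phagocyte enzyme is known from macrophages and Nox4 from vascular and other resident cells.

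The counts came from dorsal root ganglia of C57BL/6 mice, all given D-alanine, with 6 libraries per group. The control genotype was CDH5-Cre, which places Cre recombinase under the vascular endothelial cadherin promoter. The other genotype, written DAAO-TGCdh5, carries a D-amino acid oxidase transgene, whose enzyme makes hydrogen peroxide from D-alanine. In that group Cre stands in the sample names and not in the genotype label, and age, sex and any pooling of animals are not in the labels used here. Each library held 13227518 to 23884927 counts, which makes 3 counts, the floor for a gene at 0, worth 0.126 to 0.240 CPM (counts scaled by TMM library sizes). Transcripts of 11 sensory neuron markers summed to 6990 to 13197 CPM in controls and 7264 to 11178 CPM in DAAO, led by Tubb3, Prph and Calca. Xist and summed Y-linked transcripts each exceeded 10 CPM in controls 1 and 2 and in DAAO 1, 2 and 6, so that each of these 5 may come from more than 1 animal. Mitochondrial transcripts took 7.44% and 7.65% of counts in controls 2 and 6 and 3.32% to 5.13% elsewhere, and control 2 was highest in Schwann cell markers (24626 CPM summed, 7109 to 11208 CPM elsewhere) and in oligodendrocyte and spinal cord markers (2890 CPM summed, 44.7 to 1158 CPM elsewhere). The labels do not state whether each library is a separate animal, and p-values here measure only the spread between these libraries, which may be technical.

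None of the 7 tested subunits passed edgeR's quasi-likelihood test at the threshold of 0.05 on the adjusted p, where 0.753% of all 17002 genes tested did (0.506% higher and 0.247% lower in DAAO). At an unadjusted p under 0.05 there were 3 of 7, Cybb, Cyba and Duox1, all higher in DAAO, against 10.3% of all genes in both directions and 5.44% higher in DAAO. DESeq2 also passed 0 of 7 members, against 1.79% of the 20776 genes it tested, and limma-voom 0 of 7, against 0.576% of all genes. The log2 fold change, DAAO minus control, was positive in 6 of 7 with a median of 1.03, against 50.4% positive and a median of 0.0021 over all genes. Of the partner proteins, Duoxa1, the maturation factor of Duox1, rose from 0.537 ± 0.482 to 7.51 ± 2.74 CPM (SD, n = 6), and Sh3pxd2a, an adaptor protein that binds oxidase complexes, rose from 178 ± 25.3 to 282 ± 49.4 CPM.

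The 300 bases around the start of 4 genes are printed because the results below turn on them: Cybb and Nox4 are the catalytic chains that are compared within each library, and Duoxa1 and Duox1 are divergent neighbours. They run 5′ to 3′ from 250 bases before to 50 bases after the RefSeq start on build GRCm38.p6, and 7 of the 9 members had such an entry. Capitals mark GAGGAA, the core read by the PU.1 (Spi1) family, and TGANTCA, an AP-1 site, on either strand; the motifs do not overlap here. Cybb lies at chrX:9469275-9469574 on the minus strand and Nox4 at chr7:87246399-87246698 on the plus strand. For both, the RefSeq start lies inside the gene interval of the deposited table. Duoxa1 lies at chr2:122313681-122313980 on the minus strand and Duox1 at chr2:122315422-122315721 on the plus strand.
Cybb: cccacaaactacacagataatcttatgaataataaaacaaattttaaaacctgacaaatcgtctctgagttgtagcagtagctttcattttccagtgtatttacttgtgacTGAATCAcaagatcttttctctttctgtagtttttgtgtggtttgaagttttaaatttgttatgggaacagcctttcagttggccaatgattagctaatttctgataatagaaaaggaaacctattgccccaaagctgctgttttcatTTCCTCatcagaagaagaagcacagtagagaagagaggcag
Nox4: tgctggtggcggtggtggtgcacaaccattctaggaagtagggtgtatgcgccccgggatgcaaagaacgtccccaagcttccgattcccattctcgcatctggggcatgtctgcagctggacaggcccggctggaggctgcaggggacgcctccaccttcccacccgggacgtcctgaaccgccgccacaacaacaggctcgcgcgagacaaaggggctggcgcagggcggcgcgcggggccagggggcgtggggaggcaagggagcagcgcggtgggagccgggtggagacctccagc
Duoxa1: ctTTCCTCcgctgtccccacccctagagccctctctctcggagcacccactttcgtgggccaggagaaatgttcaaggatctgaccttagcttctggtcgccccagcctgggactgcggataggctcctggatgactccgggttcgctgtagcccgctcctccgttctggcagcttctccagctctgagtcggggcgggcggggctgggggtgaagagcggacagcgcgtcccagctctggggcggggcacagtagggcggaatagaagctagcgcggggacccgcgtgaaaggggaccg
Duox1: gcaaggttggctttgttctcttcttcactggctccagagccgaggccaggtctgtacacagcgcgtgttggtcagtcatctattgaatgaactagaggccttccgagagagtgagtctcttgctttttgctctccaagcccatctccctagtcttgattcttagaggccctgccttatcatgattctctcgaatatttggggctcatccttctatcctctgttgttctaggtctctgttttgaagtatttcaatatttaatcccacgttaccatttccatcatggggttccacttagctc
The Cybb window held a GAGGAA match 10 bases after the start and a TGANTCA match 139 bases before it, and the Duoxa1 window held a GAGGAA match 248 bases before its start. The windows of Nox4 and Duox1 held neither, nor did those of Cyba, Ncf1 and Duox2, which are not printed. The Nox1 window, also not printed, held a GAGGAA match 23 bases before its start. That of Duoxa2 held a TGANTCA match 168 bases before its start. Of 32851 such windows over the genome 28.3% held GAGGAA and 7.81% held TGANTCA, so these matches are a description of the letters only.

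Cybb, the catalytic chain of the phagocyte oxidase (ENSMUSG00000015340; chromosome X, 9435252 to 9487771, all gene positions on build GRCm38), stood at 1.72, 9.93, 11.3, 3.09, 13.4 and 2.48 CPM in controls 1 to 6. In DAAO 1 to 6 it stood at 15.7, 19.5, 23.8, 9.04, 7.23 and 17.8 CPM. All 6 DAAO libraries lay above the control median, but DAAO 4 and 5 lay below controls 2, 3 and 5, so the groups overlapped. In bulk tissue more cells of a type and more RNA per cell cannot be told apart. Its log2 fold change was 1.14 ± 0.49 (SE; 95% interval 0.09 to 2.19), and it did not pass (edgeR adjusted p = 0.442).

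Cyba, the membrane chain that stabilises both Cybb and Nox4 (ENSMUSG00000006519; chromosome 8, 122424776 to 122432930), spread in a similar way. Its control values were 8.98, 25.0, 16.3, 2.90, 5.56 and 11.6 CPM, and its DAAO values were 23.7, 33.0, 45.4, 13.6, 14.5 and 34.0 CPM. DAAO 3 was the highest library for both chains and DAAO 4 and 5 were the lowest of their group for both. Controls 2 and 3 reached into the DAAO range of Cyba. Cyba had a log2 fold change of 1.22 ± 0.47 (SE; 95% interval 0.21 to 2.23; edgeR adjusted p = 0.369). An antisense partner, Gm20388, covers the gene and had 0 counts.

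In the main edgeR fit the cytosolic subunits Ncf1, Rac2 and Ncf4 had smaller fold changes than Cybb and Cyba, a difference that was not tested. For Ncf4 the order reversed with limma-voom, where its log2 fold change was 1.97 against 1.34 for Cybb and 1.43 for Cyba. Ncf1, the organiser subunit (ENSMUSG00000015950; chromosome 5, 134220053 to 134229625), stood at 3.77, 12.0, 11.1, 2.20, 9.09 and 3.92 CPM in controls and at 8.44, 10.01, 12.6, 7.84, 7.40 and 9.50 CPM in DAAO. Controls 1, 4 and 6 lay below every DAAO library, controls 2, 3 and 5 lay within the DAAO range, and the log2 fold change was 0.40 ± 0.35 (SE; 95% interval -0.34 to 1.15; edgeR adjusted p = 0.786). It ran from 0.22 without control 4 to 0.63 without control 2. Ncf1 overlaps Gtf2ird2 on the other strand over 4303 bases, and with the strand setting of the counting unknown here, its counts are uncertain. The log2 fold change of Gtf2ird2, which held 3336 counts in all, was -0.01 (edgeR adjusted p = 0.997).

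Rac2, the Rac GTPase of blood-derived cells (ENSMUSG00000033220; chromosome 15, 78559167 to 78572783), stood at 2.33, 6.37, 6.54, 1.12, 6.37 and 1.76 CPM in controls and at 5.08, 6.57, 7.40, 4.14, 2.14 and 5.84 CPM in DAAO. The Rac2 groups overlapped, with 4 of 6 DAAO libraries above the control median, and the log2 fold change was 0.34 ± 0.43 (SE; 95% interval -0.57 to 1.26; edgeR adjusted p = 0.879). It ran from 0.15 without control 4 to 0.52 without control 3. Rac1, the form found in all cells, stood at 284 ± 39.3 and 284 ± 13.8 CPM, and its 95% interval on the log2 scale ran from -0.24 to 0.24.

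Ncf4, a regulatory subunit that joins the enzyme from the cytosol (ENSMUSG00000071715; chromosome 15, 78244801 to 78262580), rested on few counts. Controls 1 to 6 held 5, 51, 0, 17, 47 and 15 counts and DAAO 1 to 6 held 30, 48, 62, 21, 44 and 71 counts. Control 3 was at 0, while its Rac2 level was the highest of the controls and its Cybb level the second highest. All 6 DAAO libraries lay above the control median, and the groups overlapped. Its log2 fold change was 1.03 ± 0.71 (SE; 95% interval -0.48 to 2.54; edgeR adjusted p = 0.691). It was 1.97 with limma-voom (adjusted p = 0.394), 3.42 with limma-voom and sample weights (adjusted p = 0.105) and 1.56 without controls 2 and 6 (edgeR adjusted p = 0.309). Without control 3, the library at 0, it was 0.76 (edgeR adjusted p = 0.749).

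**Figure D1:**
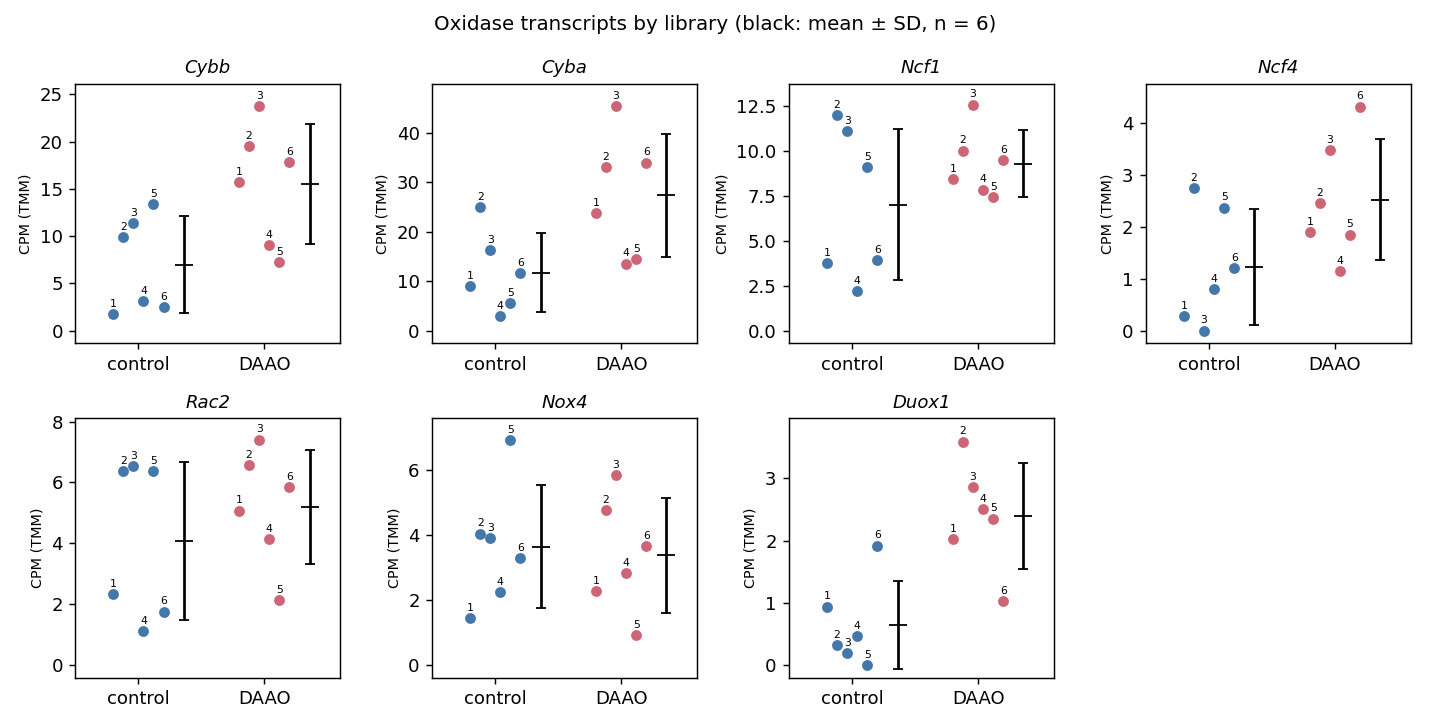
CPM of 7 oxidase transcripts in each library, numbered by replicate, with the mean and SD of 6 libraries per group in black. Cybb and Cyba reach 23.8 and 45.4 CPM in DAAO 3 and are lowest of their group in DAAO 4 and 5, while the Nox4 groups cover each other.

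Nox4, the constitutively active catalytic chain (ENSMUSG00000030562; chromosome 7, 87246096 to 87398710), stood at 1.44, 4.05, 3.89, 2.25, 6.92 and 3.28 CPM in controls and at 2.29, 4.77, 5.83, 2.83, 0.925 and 3.65 CPM in DAAO. The highest library was a control and the lowest a DAAO library, and 3 DAAO libraries stood above the control median and 3 below. Its log2 fold change was -0.11 ± 0.43 (SE; 95% interval -1.02 to 0.81; edgeR adjusted p = 0.973). Poldip2, a protein that binds the Nox4 complex, had a log2 fold change of -0.09 ± 0.12 (SE; edgeR adjusted p = 0.889).

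Cybb stood higher relative to Nox4 in every DAAO library than in any control library. The log2 CPM of Cybb minus that of Nox4 was 0.24, 1.27, 1.52, 0.44, 0.94 and -0.39 in controls 1 to 6 and 2.73, 2.01, 2.01, 1.64, 2.83 and 2.25 in DAAO 1 to 6. DAAO 5 held the largest value. There Cybb was the lowest of its group (7.23 CPM) and Nox4 the lowest of all libraries (0.925 CPM). The difference between the group means was 1.57 ± 0.34 (SE, 6 libraries in each group; two-sided exact permutation p = 0.00216, the smallest that 924 splits allow; 0.00649 adjusted over 3 such comparisons). This pair of genes was chosen with earlier results of these data known, a choice that the adjustment over 3 does not cover. Without the 5 libraries that hold both Xist and Y-linked transcripts the difference between the group means was 1.53 (adjusted exact permutation p = 0.171). With 4 controls against 3 DAAO libraries the smallest exact permutation p before adjustment is 0.0286.

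**Figure D2:**
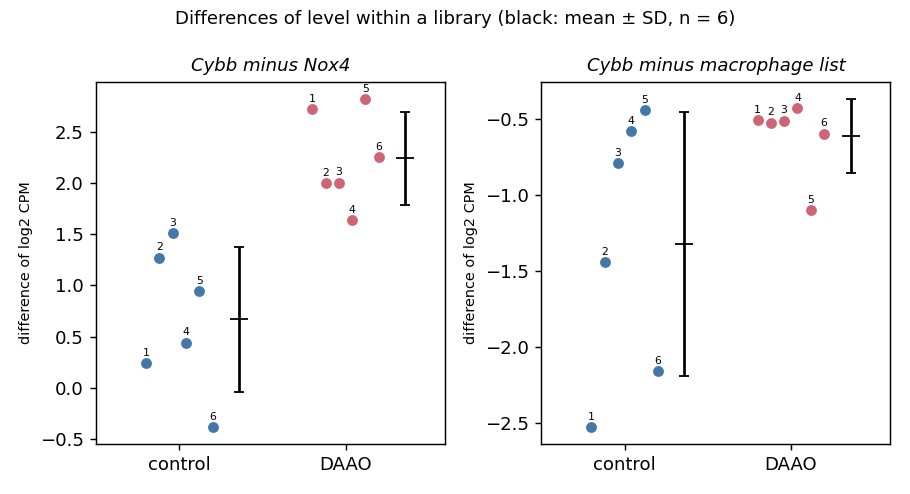
Differences of log2 CPM within each library, numbered by replicate, with the mean and SD of 6 libraries per group in black. The DAAO libraries lie above all controls for Cybb minus Nox4 (1.64 to 2.83 against -0.39 to 1.52) and overlap them for Cybb minus the macrophage markers.

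Duoxa1 (ENSMUSG00000027224; chromosome 2, 122302191 to 122313730, minus strand) had the largest fold change of the 13 tested oxidase genes, members and partners together. Controls 1 to 6 held 9, 0, 9, 7, 10 and 18 counts, and DAAO 1 to 6 held 117, 138, 219, 75, 142 and 135 counts. In CPM the controls ranged from 0 to 1.44 and the DAAO libraries from 4.08 to 12.3, so the groups did not overlap. Of all genes tested 1.45% had groups that did not overlap, and 0.918% with DAAO higher. The log2 fold change of Duoxa1 was 3.84 ± 0.56 (SE; 95% interval 2.66 to 5.03; edgeR adjusted p = 0.00217). It kept its call when any 1 library was left out, with log2 fold changes from 3.59 to 4.37 (edgeR adjusted p from 0.000317 to 0.00877). Without the 5 libraries that hold both Xist and Y-linked transcripts the call was lost at a log2 fold change of 3.49 (edgeR adjusted p = 0.124), and 4 genes passed in that smaller set.

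Duox1, the oxidase that Duoxa1 serves (ENSMUSG00000033268; chromosome 2, 122315672 to 122347972, plus strand), begins 1942 bases from the Duoxa1 start and is transcribed away from it. It had 17, 6, 4, 10, 0 and 24 counts in controls and 32, 70, 51, 46, 56 and 17 counts in DAAO. In CPM this was 0.643 ± 0.703 against 2.40 ± 0.854 (SD, n = 6). All 6 DAAO libraries lay above the control median, but DAAO 6 at 1.03 CPM lay below control 6 at 1.92 CPM. The log2 fold change of 1.93 ± 0.72 (SE; 95% interval 0.40 to 3.46) did not pass (edgeR adjusted p = 0.339). Duox1 and Duoxa1 do not overlap in the table; Duoxa1 overlaps Duoxa2 on the other strand over 695 bases, and Duoxa2 held 2 counts in all 12 libraries together.

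**Figure D3:**
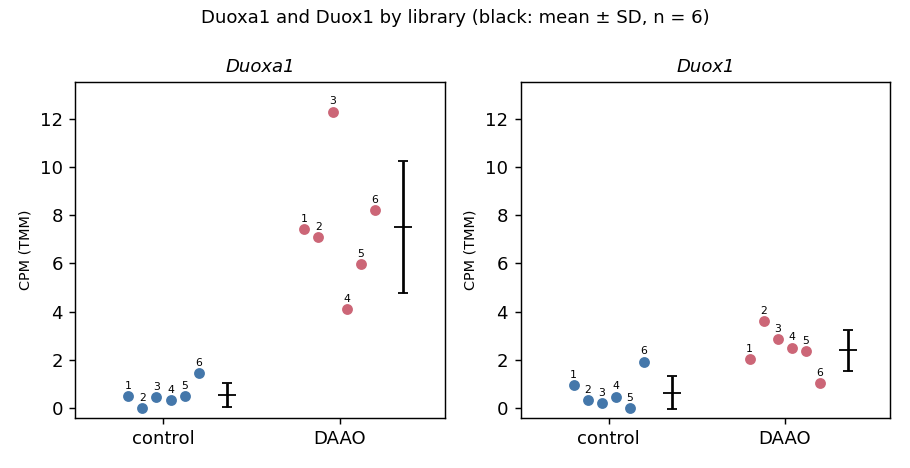
CPM of Duoxa1 and Duox1 in each library on the same scale, numbered by replicate, with the mean and SD of 6 libraries per group in black. Duoxa1 lies at 4.08 CPM or more in every DAAO library and at 1.44 CPM or less in every control, while the Duox1 groups overlap through control 6 and DAAO 6.

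Duox2 and Nox1 were close to the detection floor and were not tested. Duox2, the other dual oxidase (ENSMUSG00000068452; chromosome 2, 122279247 to 122298165), had 6 counts over the 6 controls, in 2 libraries, and 10 counts over the 6 DAAO libraries, in 4. Nox1, the catalytic chain known from colon epithelium (ENSMUSG00000031257; chromosome X, 134086421 to 134221956), had 2 counts over the controls, all in control 4, and 14 over DAAO, of which DAAO 2 held 6 and DAAO 6 held 7. Nox1 overlaps Xkrx on its own strand over 13034 bases as well as Cstf2 and Arl13a on the other strand, so even these counts are uncertain.

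Among 10 other organisers, activators and maturation factors, 6 were tested, with a median log2 fold change of 0.21. Of these 2 rose and none fell, against 0.506% higher and 0.247% lower of all genes tested. Beside Duoxa1 this was Sh3pxd2a (ENSMUSG00000053617), also known as an organiser of matrix-degrading protrusions, at 173, 188, 202, 193, 180 and 130 CPM in controls and 337, 314, 318, 261, 206 and 258 CPM in DAAO. The groups did not overlap, as in 0.918% of all genes tested with DAAO higher. The log2 fold change was 0.67 ± 0.14 (SE, edgeR adjusted p = 0.0330). Leaving out any 1 of controls 1, 3, 5 and 6 or of DAAO 1, 2, 3, 4 and 6 ended this call (edgeR adjusted p from 0.0531 to 0.114). Its relative Sh3pxd2b had a log2 fold change of 0.38 ± 0.12 (SE; edgeR adjusted p = 0.217). Cybc1, the chaperone of the Cybb and Cyba pair, stood at 43.4 ± 8.38 and 44.5 ± 4.42 CPM with a log2 fold change of 0.04 (edgeR adjusted p = 0.970). Of the untested partners of Nox1, Noxa1 had no count in any library and Noxo1 had 24 and 44 counts in the control and DAAO groups. Nox3, the oxidase of the inner ear, had 20 counts over the controls, 13 of them in control 5, and 3 over DAAO.

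**Figure D4:**
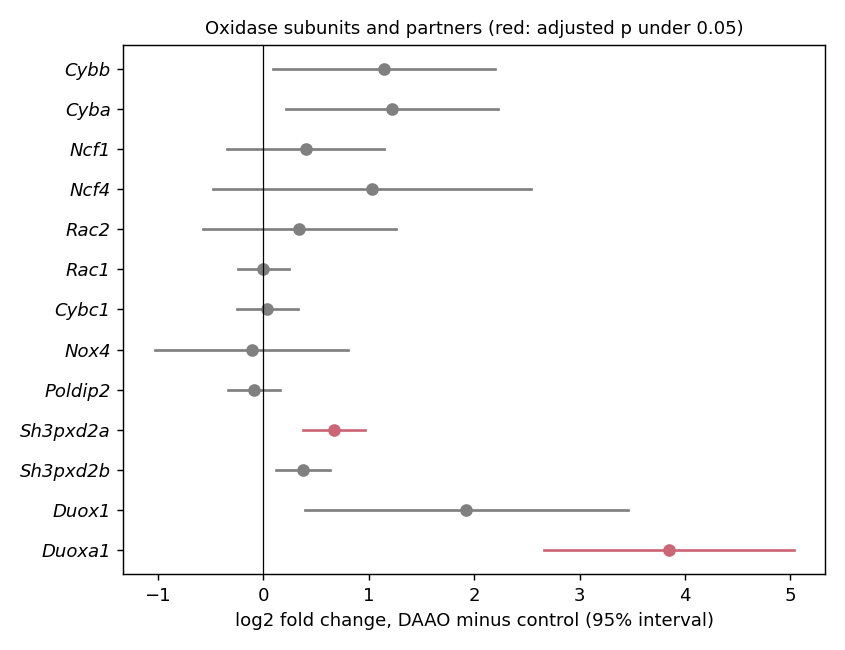
Log2 fold change, DAAO minus control, with its 95% interval for the 13 tested members and partners, in red where the adjusted p was under 0.05. Duoxa1 at 3.84 and Sh3pxd2a at 0.67 passed; the intervals of Cybb, Cyba, Sh3pxd2b and Duox1 lie above 0 without passing over all genes.

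Per kilobase of gene length, among the members and Duoxa1, the order of levels in controls was led by Cyba at 11.3 ± 7.72 CPM per kilobase (SD, n = 6). Ncf1 at 1.91 ± 1.15, Rac2 at 1.32 ± 0.836 and Cybb at 1.203 ± 0.884 CPM per kilobase followed. Ncf1 lay below Cyba and above Rac2 and Cybb in every control library. Between libraries the control ranges of Ncf1 (0.600 to 3.27), Rac2 (0.362 to 2.11) and Cybb (0.296 to 2.30 CPM per kilobase) overlapped, and these differences were not tested. Ncf4 at 0.611 ± 0.553 and Nox4 at 0.430 ± 0.223 came next, and Duoxa1 and Duox1 stood at 0.135 ± 0.121 and 0.122 ± 0.133 CPM per kilobase. In DAAO Cyba led at 26.3 ± 12.0, followed by Cybb at 2.67 ± 1.09, Ncf1 at 2.54 ± 0.513, Duoxa1 at 1.89 ± 0.689 and Rac2 at 1.67 ± 0.605 CPM per kilobase. Duoxa1 thus stood below Nox4 in controls and above it, at 0.399 ± 0.208, in DAAO. Duox1 at 0.455 ± 0.162 and Nox4 did not differ beyond their spread there.

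The 12 macrophage markers summed to 166, 464, 300, 75.6, 251 and 177 CPM in controls 1 to 6 and to 393, 475, 655, 195, 238 and 518 CPM in DAAO 1 to 6, and none of the 12 was at 0 over all libraries. DAAO 1, 2, 3 and 6 were the 4 highest of their group for the markers, for Cybb and for Cyba, and controls 2, 3 and 5 were the 3 highest of theirs for the markers and for Cybb. For Cyba control 5 was instead the second lowest control. None of the 12 markers passed, and their median log2 fold change was 0.80. At an unadjusted p under 0.05, 6 were higher and 1 lower in DAAO. Over all genes that share was 10.3% in both directions and 5.44% higher. The log2 fold change was negative in 3 markers, Cd163 (-0.98, edgeR adjusted p = 0.387), Mertk (-0.19) and Mrc1 (-0.16). The most abundant of the 12 were the complement genes C1qb (37.5 ± 22.6 and 86.7 ± 45.2 CPM), C1qa (35.95 ± 23.98 and 85.6 ± 43.3 CPM) and C1qc (27.0 ± 22.0 and 73.1 ± 37.9 CPM), with edgeR adjusted p from 0.372 to 0.445. Relative to the mean log2 CPM of these markers, Cybb stood at -1.32 ± 0.87 in the control group and -0.61 ± 0.25 in the DAAO group (SD, n = 6), a difference of 0.71 ± 0.37 (SE; exact permutation p = 0.0866, two-sided, 0.130 adjusted over 3). Controls 1 and 6 held the lowest values, -2.53 and -2.16, at marker sums of 166 and 177 CPM. Control 4, with the lowest marker sum at 75.6 CPM, stood higher at -0.58. The difference was 0.47 without control 1 (adjusted exact permutation p = 0.253) and 0.89 without control 5 (adjusted exact permutation p = 0.0455), the only 1 of 16 alternatives that passed. Without the 5 libraries that hold both Xist and Y-linked transcripts it was 0.31 (adjusted exact permutation p = 0.857), in a set of 4 controls and 3 DAAO libraries.

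Neutrophils also carry this enzyme, and none of their markers passed. The 12 markers summed to 12.6 to 231 CPM in controls, highest in control 2, and to 9.53 to 139 CPM in DAAO, highest in DAAO 3. Of 8 tested, 7 had a negative log2 fold change, and the median was -0.70. An unadjusted p under 0.05 was held by 1, Csf3r, with DAAO higher (1.03, edgeR adjusted p = 0.460), against 10.3% of all genes. The most abundant were S100a9 (19.1 ± 24.5 and 12.3 ± 15.1 CPM), S100a8 (16.5 ± 18.8 and 9.80 ± 12.8 CPM) and Ngp (13.4 ± 16.8 and 7.57 ± 7.38 CPM). Ly6g, Elane, Cxcr2 and Mmp8 did not pass the count filter. Of 9 lymphocyte markers only Cd4 and Cd79a passed the filter, and neither passed the test (log2 fold changes 1.71 and 0.34; edgeR adjusted p = 0.495 and 0.894). The part of these cell types in the levels of the oxidase genes was not tested.

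**Figure D5:**
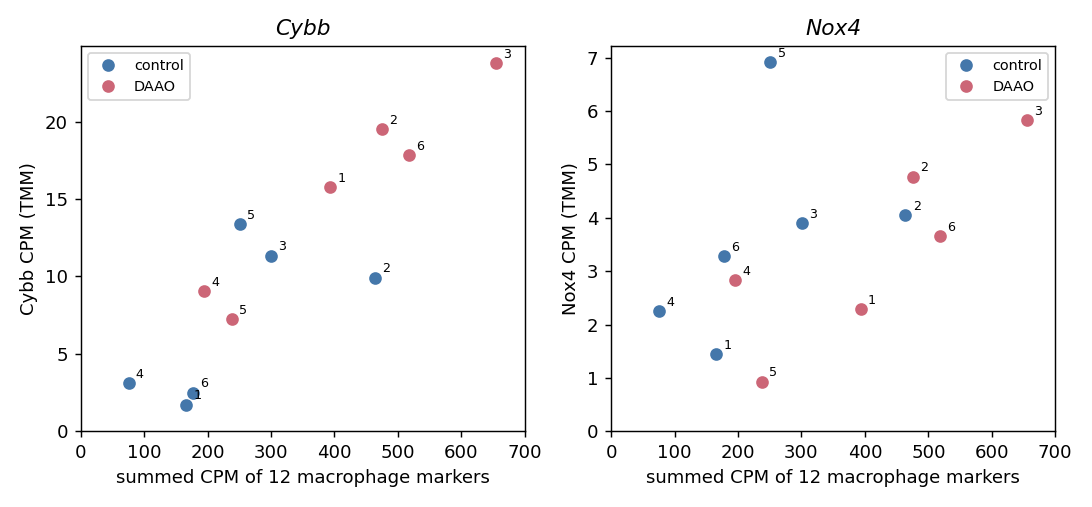
CPM of Cybb (left) and Nox4 (right) in each library against the summed CPM of 12 macrophage markers, numbered by replicate. Cybb is highest in DAAO 3, where the markers reach 655 CPM, while the highest Nox4 value, 6.92 CPM in control 5, comes at a marker sum of 251 CPM.

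Of 21 genes for the activation of the phagocyte enzyme none passed edgeR's test, and 9 had an unadjusted p under 0.05, all higher in DAAO. Over all genes that share was 10.3% in both directions and 5.44% higher. The median log2 fold change of the 21 was 0.53. The most abundant were Arhgdia, which holds Rac proteins inactive (475 ± 75.8 and 578 ± 74.9 CPM; edgeR adjusted p = 0.492), and the protein kinases C Prkca (383 ± 97.5 and 394 ± 56.1 CPM) and Prkcd (299 ± 81.9 and 347 ± 45.4 CPM), with edgeR adjusted p of 0.975 and 0.757. Tyrobp, the adaptor of activating receptors on myeloid cells, stood at 7.50 ± 4.74 and 27.6 ± 15.8 CPM (1.88 ± 0.48 SE; edgeR adjusted p = 0.120), and passed in 4 of 26 alternatives, DESeq2 among them (adjusted p = 0.0190). Of 6 tested transcription factors of phagocyte oxidase genes none passed edgeR's test, and 3 had an unadjusted p under 0.05, against 10.3% of all genes. The median log2 fold change of the 6 was 0.36. The most abundant were Runx1 (113 ± 25.6 and 109 ± 8.77 CPM), Irf1 (19.4 ± 2.91 and 20.7 ± 2.37 CPM) and Cebpa (14.2 ± 2.41 and 22.0 ± 6.00 CPM; 0.63 ± 0.19 SE; edgeR adjusted p = 0.160). Spi1, which encodes PU.1, stood at 3.79 ± 1.93 and 9.83 ± 3.22 CPM (1.37 ± 0.34 SE; edgeR adjusted p = 0.0879), and Irf8, its partner, at 2.92 ± 2.17 and 9.38 ± 3.37 CPM (1.67 ± 0.47 SE; edgeR adjusted p = 0.143). Spi1 passed in 7 and Irf8 in 4 of 26 alternatives, in both cases with DESeq2 (adjusted p = 0.0103 and 0.0202) and without control 2 (edgeR adjusted p = 0.0261 and 0.0414). Without control 2 Tyrobp passed as well (edgeR adjusted p = 0.0352).

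Earlier results of these data had already shown a 10-gene list of foamy phagocyte transcripts to rise in part. Of these 5 rose and none fell, against 0.506% higher and 0.247% lower of all genes tested. Negative log2 fold changes were found in 3, Spp1 (-0.36, edgeR adjusted p = 0.387), Lpl (-0.17) and Cd9 (-0.16). Trem2, a lipid receptor of macrophages, rose from 4.33 ± 3.43 to 33.0 ± 16.7 CPM (2.92 ± 0.48 SE; edgeR adjusted p = 0.0118), a call lost without control 5 (adjusted p = 0.0501). The other 4 were Gpnmb, a lysosomal membrane glycoprotein (3.94 ± 0.44 SE), Atp6v0d2, a proton pump subunit (6.11 ± 0.84 SE), the elastase Mmp12 (5.15 ± 0.83 SE) and the lectin receptor Clec4d (4.38 ± 0.85 SE), with edgeR adjusted p from 0.00160 to 0.0202. Clec4d no longer passed when DAAO 2, 3 or 6 was left out (edgeR adjusted p from 0.0537 to 0.0789), limma-voom did not pass Clec4d, Atp6v0d2 or Mmp12 (adjusted p = 0.0539, 0.111 and 0.139), and all 5 calls were lost without the 5 libraries that hold both Xist and Y-linked transcripts.

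Nox4 was set beside the markers of endothelium, where the Cdh5 promoter is active. The 10 endothelial markers summed to 163 to 215 CPM in controls and 132 to 262 CPM in DAAO, none passed, and their median log2 fold change was 0.07. The most abundant were the receptor Flt1 (33.4 ± 8.38 and 25.7 ± 7.41 CPM), the junction protein Cldn5 (22.6 ± 4.38 and 33.0 ± 9.49 CPM) and Egfl7 (25.2 ± 5.50 and 27.9 ± 6.44 CPM). The log2 CPM of Nox4 minus the mean of these markers was -2.30 ± 0.70 and -2.41 ± 1.05 (SD, n = 6), a difference of -0.11 ± 0.51 (SE; exact permutation p = 0.848, two-sided, 0.848 adjusted over 3). Of 8 pericyte and smooth muscle markers, led in abundance by Rgs5 (239 ± 35.4 and 214 ± 29.2 CPM) and Pdgfrb (36.9 ± 6.98 and 44.0 ± 8.80 CPM), 1 rose, the proteoglycan Cspg4, from 15.6 ± 2.43 to 26.0 ± 4.67 CPM (0.74 ± 0.16 SE; edgeR adjusted p = 0.0335), a call lost without controls 1, 4, 5 or 6 or DAAO 1, 2, 3 or 6 (adjusted p from 0.0609 to 0.111). Over all genes tested 0.506% rose. All 7 fibroblast markers, led in abundance by Dcn, Col1a2 and Col3a1, had positive log2 fold changes with a median of 0.46, and none passed. Dual oxidases are best known from epithelia, and of 5 epithelial markers Epcam, Krt8 and Krt18 did not pass the count filter, while Cdh1 and Krt19 did and had edgeR adjusted p of 0.907 and 0.808.

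None of 13 scavengers of reactive oxygen passed, and their median log2 fold change was -0.08. At an unadjusted p under 0.05 there was 1, the mitochondrial superoxide dismutase Sod2 (log2 fold change -0.23), against 10.3% of all genes. The most abundant, the peroxidase Gpx4 and the peroxiredoxins Prdx2 and Prdx1, had log2 fold changes of -0.17, -0.25 and 0.02 (edgeR adjusted p = 0.865, 0.576 and 0.992). None of 9 tested enzymes from a list of other oxidant producers passed, and their median log2 fold change was -0.14. At an unadjusted p under 0.05 there were 0, against 10.3% of all genes. The most abundant members of the list were the monoamine oxidase Maoa, the aldehyde oxidase Aox1 and the nitric oxide synthase Nos1. Their log2 fold changes were 0.04, -0.18 and -0.14 (edgeR adjusted p = 0.949, 0.761 and 0.892).

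The genes whose log2 CPM, centred over the 12 libraries, lay closest to that of Cybb among 14333 genes were Cd53, a tetraspanin of blood cells, Gli3, Ltbp1, Irf8 and Meox1, with mean absolute differences of 0.33 to 0.37 on the log2 scale. Against the same profile Rac2, Ncf1 and Cyba stood at 0.49, 0.54 and 0.63, Nox4 at 0.80, Ncf4 at 0.85, Duox1 at 1.45 and Duoxa1 at 1.56, where the median of all genes tested was 1.01. Closest to Nox4 were Slc26a7, L3hypdh, the processed pseudogene Gm14494, Card6 and Thumpd2, at 0.31 to 0.34, and none of these 10 genes passed the test between the groups.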

How the data were processed

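RNA of whole ganglia was sequenced as paired reads in 12 libraries. The authors deposited 1 table of whole-number read counts, not normalised, for 54532 genes with names, positions and lengths. The submitters' processing notes name HISAT2 2.0.5, FastQC and DESeq2 1.20.0 with GRCm38 and mm10. The counting program and its strand setting: not given in the sources used here.

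Groups came from the sample titles. After edgeR's filterByExpr (minimum count 10, minimum total 15) and TMM scaling, genes were tested with edgeR 4.0.16 (robust quasi-likelihood F test, R 4.3.3, two-sided). Benjamini-Hochberg adjustment covered all 17002 genes, with a threshold of 0.05. SE is the log2 fold change over the root of F, without sign, and 95% intervals use the matching t distribution. The log2 CPM used a prior count of 2. Level differences within libraries were compared by exact permutation over 924 splits. Alternatives used DESeq2 1.42.0, limma 3.58.1, other scaling and filters, and subsets of libraries. The test was checked on simulated data. Promoter windows came from RefSeq.

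The members, gene lists and tests were chosen with earlier results of these data known. Named genes were all members and the partners reported, of other lists those that passed or else the 3 most abundant, and the 5 genes most like Cybb and Nox4. Tyrobp, Spi1, Csf3r, Sod2, Cd163, Mertk, Mrc1 and the markers under the filter were named after their values were seen. Any 2 libraries differed by more than sampling noise (smallest chi-square per degree of freedom 19.6). Some genes of the lists are not reported here. Floors cover counting error only.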

Additional observations from a re-analysis of the deposited data

Results flagged for a closer look

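In 3 of 28 groups of 6 libraries 1 library lay farther from its nearest neighbour, relative to the range of the group, than Dixon's 95% critical value for 6 values allows; chance flags about 1 in 20 groups. Nox1 stood at 0.0936 CPM in control 4, under the floor of 0.140 CPM for that library, and at 0 in the other controls. With all other values at 0 any count is flagged, so the rate of 1 in 20 does not apply to this group. Duoxa1 stood at 1.44 CPM in control 6, where the next control held 0.505 CPM. The log2 CPM of Cybb minus the mean of the macrophage markers was -1.10 in DAAO 5, with the next DAAO library at -0.60.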

How the results depend on the processing

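The count of genes changed, 128 in all, was 226 at an adjusted p under 0.1, 371 with DESeq2, 295 with limma-voom and sample weights, 212 with the Xist level as a term, 648 without controls 2 and 6, the libraries with the highest mitochondrial share, and 4 without the 5 libraries that hold both Xist and Y-linked transcripts. With 1 library left out it ran from 61 to 322, and moved beyond 1.5 times for controls 1 (80), 2 (322) and 5 (77) and for DAAO 1 (78), 2 (65), 3 (73) and 6 (61). The count of oxidase members that passed stayed at 0 in 25 of 26 alternatives and was 1 with the replicate block, where Cyba passed (1.39, adjusted p = 0.00918); 2 of 6 same-numbered pairs correlated above 0.1 (range -0.08 to 0.21), and 3 of 6 controls correlated best with their own number, a hint from the data and not the design. Duoxa1 kept its call in 25 of 26 alternatives, with log2 fold changes from 3.42 to 4.41 over all of them, and Sh3pxd2a in 16 of 26.

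Cybb relative to Nox4 was 1.53 without those 5 libraries and 1.36 to 1.74 with 1 library left out. Without those 5 it was not past the threshold, which no comparison could pass alone in that set. Cybb relative to the macrophage markers was 0.31 without those 5 libraries and ran from 0.47 to 0.89 with 1 library left out. Nox4 relative to the endothelial markers reversed to 0.028 without controls 2 and 6 and ran from -0.39 to 0.19 with 1 library left out. Log2 fold changes near 0 reversed. Nox4 was 0.030 with the Xist level as a term and ran from -0.34 to 0.16 with 1 library left out. Poldip2 was 0.025 with sample weights and 0.032 without controls 2 and 6. Cybc1 was -0.0046 with the Xist level and ran from -0.066 to 0.11. Rac1 was 0.044 with library totals, 0.0079 unfiltered, 0.014 with limma-voom, 0.011 with the replicate block, 0.053 without the 5 libraries and 0.059 without controls 2 and 4, and ran from -0.082 to 0.031. The cause was not tested for any of these, except that fewer libraries entered the smaller fits. Depth limits Nox1, Duox2, Noxo1 and Nox3, whose counts lay near the floor.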
